A study of Mus musculus with 22 samples.

Results

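The translation initiation and elongation factors were followed in B-lineage cells of mice as they passed from normal to premalignant to malignant under Myc. Members were the array's probe sets annotated to a single gene symbol that begins with Eif or Eef followed by a digit, without Eif2s3x and Eif2s3y. The rule used names and no measured value. It gave 114 of the 22690 probe sets on the array, which stand for 50 of the 12393 genes with a symbol of their own. Of these, 91 probe sets of 49 genes exceeded log2 4 on at least 4 arrays and were tested, with the brightest probe set standing for its gene. The other 23 probe sets, among them those of Eef2kmt, did not exceed that level on as many arrays and were not tested.

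Each of 22 samples was hybridised to 1 Affymetrix MOE430A array, and all mice had a C57Bl/6 background. There were 4 wild type samples of B220+ B cells, 5 premalignant samples of B lymphocytes from Eμ-Myc transgenic animals, and 13 malignant samples, lymphomas of independent Eμ-Myc transgenic mice. In this strain the immunoglobulin heavy chain enhancer drives Myc in the B lineage. The wild type and premalignant mice were littermates of 4 to 6 weeks. The labels give the lymphomas the same age, which may be that of the young mice only. Cells came from bone marrow or spleen and were enriched with beads against B220 or IgM, and the labels do not say which organ or antibody served which sample. They call samples of a group biological replicates without naming separate animals outside the lymphomas, so the p-values there measure the spread between these samples, which may be technical.

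Translation begins when initiation factors load the initiator tRNA onto the small ribosomal subunit, bring that subunit to the capped end of an mRNA, scan to the start codon and join the large subunit. Elongation factors then deliver aminoacyl-tRNAs and move the ribosome along. Myc and its partner Max bind the sequence called the E-box, and many genes of ribosome production and protein synthesis are known Myc targets, which is why Eμ-Myc lymphoma is a standard setting for the study of translation control.

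The E-box CACGTG reads the same on both strands, and it lies in the RefSeq promoter windows (250 bases before to 50 after a start, GRCm38.p6) of several factors. The stretches shown are a choice among members whose levels are described below, with the E-box in capitals and the gene's own strand written 5′ to 3′. Eef1aknmt, Eef2k, Eif1b and Eif3k also held an E-box upstream of a start, and their stretches are not shown.
Eif4e, upstream of a start further inside the gene (chr3:138527018-138527249, plus strand): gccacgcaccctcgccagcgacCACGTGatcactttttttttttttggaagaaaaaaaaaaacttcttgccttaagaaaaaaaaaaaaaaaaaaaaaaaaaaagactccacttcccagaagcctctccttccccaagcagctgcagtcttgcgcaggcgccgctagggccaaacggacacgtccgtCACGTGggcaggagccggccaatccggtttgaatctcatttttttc
Eif4a1 (chr11:69672567-69672652, minus strand): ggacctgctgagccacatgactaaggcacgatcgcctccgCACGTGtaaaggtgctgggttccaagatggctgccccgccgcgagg
Eif4h (chr5:134639460-134639545, minus strand): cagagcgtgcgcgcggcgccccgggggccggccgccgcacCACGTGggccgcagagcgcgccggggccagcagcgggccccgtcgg
Eif5a, upstream of a start inside its locus (chr11:69921415-69921500, minus strand): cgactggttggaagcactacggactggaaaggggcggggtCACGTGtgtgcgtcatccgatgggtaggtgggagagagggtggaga
Eif5a, upstream of another start inside its locus (chr11:69920763-69920848, minus strand): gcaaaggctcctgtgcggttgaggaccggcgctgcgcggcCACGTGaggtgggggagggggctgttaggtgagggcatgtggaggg
Eef2 (chr10:81176548-81176630, plus strand): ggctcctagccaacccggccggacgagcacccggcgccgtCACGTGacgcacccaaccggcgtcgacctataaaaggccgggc
Eif3f (chr7:108934307-108934392, plus strand): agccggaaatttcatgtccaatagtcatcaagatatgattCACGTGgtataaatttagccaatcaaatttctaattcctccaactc
The first 5 genes with a printed stretch, Eif4e to Eef2, had higher mRNA in lymphomas than in wild type cells, and the last, Eif3f, had lower. Of the genes not shown, Eef1aknmt and Eef2k were higher in that comparison, and Eif1b and Eif3k did not pass in any comparison. Eef2k was under log2 4 on every wild type array and passed the filter only through the other groups. The 2 E-boxes of Eif4e lie 228 and 64 bases before the later of its starts, and the window at its first start held none. Both stretches of Eif5a also precede starts inside the locus and not its outermost one, while those of Eif4a1, Eif4h, Eef2 and Eif3f lie at the gene's first start.

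Of the 50 factor genes, 40 had a promoter entry, and 11 of them (27.5%) held the E-box in the window of at least 1 of their starts. Among genes tested on the arrays the share was 687 of 5332 (12.9%), and among all genes of the promoter table it was 2187 of 27025 (8.09%). Factors that were higher in lymphomas than in wild type cells held it in 8 of 21 promoters, those not called in 2 of 14, and those that were lower in 1 of 4. The related hexamer CACGCG, searched on both strands, lay in 17.5% of factor promoters and 21.6% of those of tested genes. These are matches of letters and no measurement of binding.

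Myc itself was at log2 7.04 ± 0.27 (SD, n = 4) in wild type cells, 9.97 ± 0.26 (n = 5) in premalignant cells and 9.59 ± 0.59 (n = 13) in lymphomas. The arrays gave other measures that moved with stage. The difference between the 3′ and 5′ beta-actin control probe sets, which widens as RNA degrades or is copied short, ran from 0.64 to 0.86 in wild type, 0.58 to 0.81 in premalignant and 1.29 to 2.49 log2 units in malignant arrays. B cell markers summed to 25606 to 30640 intensity units in wild type, 17802 to 22421 in premalignant and 4062 to 10266 in malignant samples, with 8 of 9 markers over log2 4 on every array and Pax5 under it in all groups. Stroma and endothelium markers (9 on the array) summed to 270.2 to 303.6, 143 to 201 and 317 to 3735, and 7 of them, Col1a2, Col3a1, Fn1 and Sparc included, were at the floor in the first 2 groups. Neutrophil markers (10 on the array) reached 6255 among the lymphomas, against at most 660 in wild type and 951 in premalignant samples. Plasma cell markers (6 on the array) summed to 2668 to 4597 in wild type, 1242 to 3202 in premalignant and 222 to 922 in malignant samples, and 3 of 4 tested were lower at the second step. Natural killer cell markers (6 on the array) summed to 50.2 to 188, 41.8 to 415 and 33.3 to 37.2, with all 6 at the floor in lymphomas and both tested ones lower at the second step. The part of the marker shifts in the results was not tested, and in such bulk samples fewer cells of a type and less RNA per cell cannot be told apart.

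Between wild type and premalignant cells, 12 of the 49 factor genes rose and 1 fell, by limma with a Benjamini-Hochberg threshold of 0.05 for the adjusted p among 6437 genes (called, in what follows). Of all genes 26.8% were called, 12.7% higher and 14.1% lower, so the share of factors called (26.5%) was that of the background while the factors' calls were nearly all in the higher direction. The median difference over the factors was 0.22 log2 units, against -0.054 over all genes. Groups did not overlap for 10 factors, and for 24.1% of all genes. Centring each array on its hybridisation spikes lifts the median of all genes to 0.20 and that of the factors to 0.48, and then 7 factors were called, all of them higher. The calls of Eif2ak3, Eif2b5, Eif2s2, Eif3l, Eif3m and Eif4ebp1 were lost there (adjusted p 0.13 to 0.83), and without a filter on dim probe sets those of Eif2b5, Eif3b and Eif4ebp1 (up to 0.13). With that scaling 81.25% of called genes were higher, against 47.4% without it.

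Between premalignant cells and lymphomas, 13 factors rose and 5 fell, 36.7% of the 49 against 42.1% of all genes (24.8% higher, 17.3% lower). The median was 0.23 for the factors and 0.089 for all genes. Groups did not overlap for 6 factors, and for 12.2% of all genes. Without premalignant replicate 5, 12 factors were called at this step, 6 higher and 6 lower. Taking the mean over a gene's probe sets in place of the brightest one brought the factors' median down to 0.075 and that of all genes to 0.055. With the beta-actin 3′ to 5′ difference as a covariate, which separates these groups without overlap, 0 of the 49 factors were called and 321 of all genes. RNA quality and stage therefore cannot be told apart at this step. Spike centring left 9 factors and ended the calls of Eef2, Eif2ak2, Eif3d, Eif3f, Eif3m, Eif4a2, Eif4ebp1, Eif4g3 and Eif6 (adjusted p 0.054 to 0.50). Of the factors left, 88.9% were higher, against 72.2% without it. Called genes as a whole were higher in 68.3% and 58.9%.

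Over the whole course, from wild type cells to lymphomas, 26 factors were higher and 4 lower, together 61.2% against 61.5% of all genes (31.8% higher, 29.7% lower). The median was 0.41 for the factors and 0.041 for all genes. The groups did not overlap for 19 factors, against 33.7% of all genes. Of the 49 factors tested, 11 were called with a change of at least 2-fold, a smaller share than the 30.9% among all genes tested. Spike centring raised the medians to 0.81 and 0.43, with 96.3% of called factors and 74.9% of called genes higher, against 86.7% and 51.7%. With the beta-actin covariate 15 factors were called. That measure separates these groups without overlap as well, so RNA quality and stage cannot be told apart over the whole course either. Both steps share the premalignant arrays, and the following values are given for each step on its own.

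**Figure D1:**
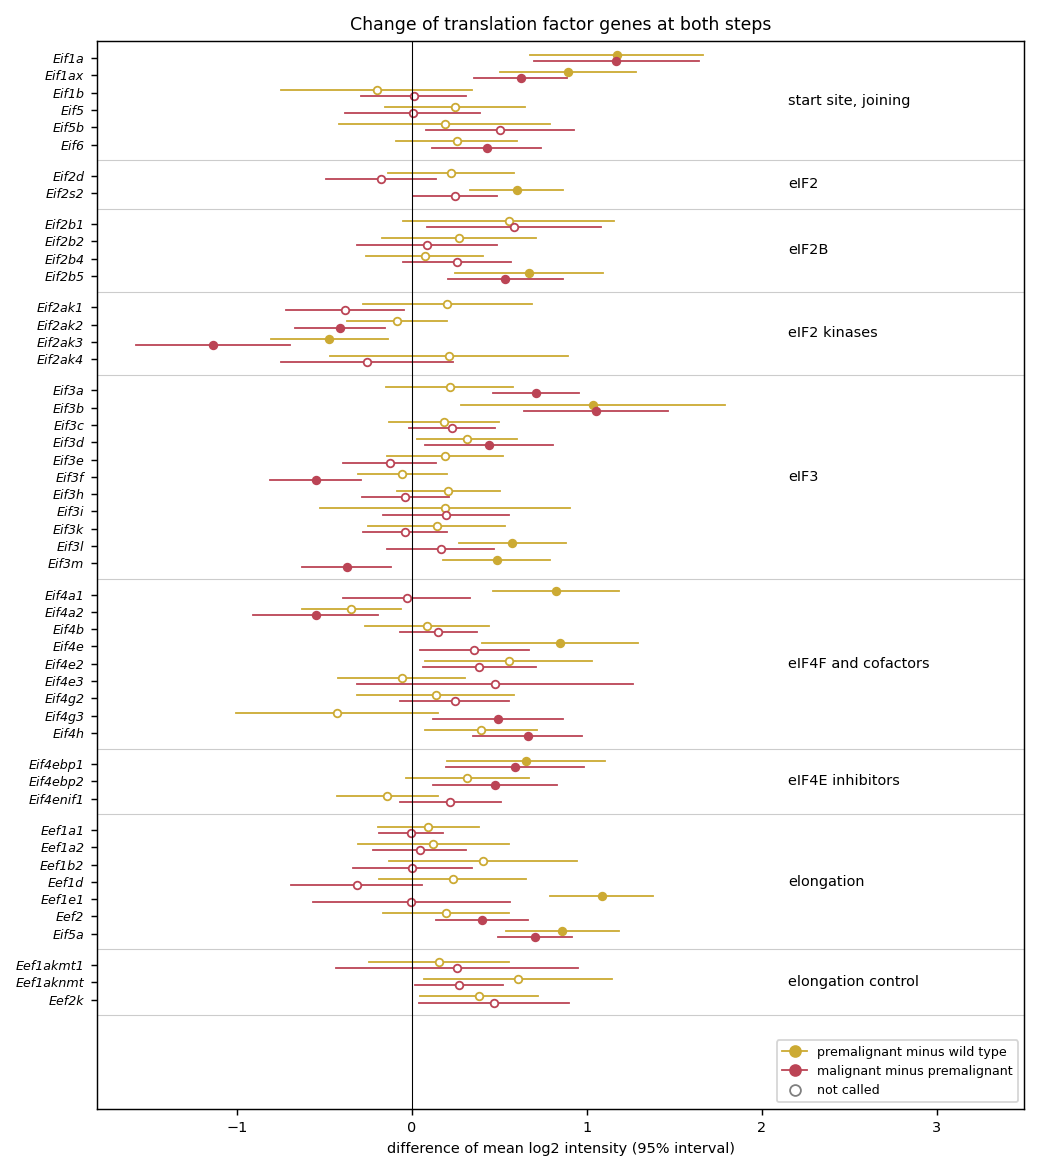
Differences of mean log2 intensity with 95% intervals for the 49 tested factor genes, grouped by role, for premalignant minus wild type (yellow) and malignant minus premalignant (red). Filled points were called (limma adjusted p under 0.05); 12 yellow points are called to the right of 0 and 1 to the left, and 13 red points to the right and 5 to the left.

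By the order of their calls, 6 factors rose at both steps (Eif1a, Eif1ax, Eif2b5, Eif3b, Eif4ebp1 and Eif5a). Another 5 rose at the first step and were called over the whole course but not at the second (Eef1e1, Eif2s2, Eif3l, Eif4a1 and Eif4e), and 6 rose at the second and over the whole course (Eef2, Eif3a, Eif3d, Eif4ebp2, Eif4h and Eif6). There were 9 called only over the whole course, all higher. Eif2ak3 fell at both steps, Eif2ak2, Eif3f and Eif4a2 fell at the second, and 17 factors were called in none of the 3 comparisons. A call at one step and none at the other does not show that the steps differ. In the test of that difference Eif3m alone passed, in the lower direction, while 5.56% of all genes passed, 3.03% with the second step higher and 2.53% with it lower.

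Of 6 factors of start site recognition and subunit joining, 2 rose at the first step and 3 at the second, led by the 2 genes of eIF1A, the protein that holds the scanning subunit open and helps to fix the start codon. Eif1a was at log2 5.58, 6.02, 5.30 and 4.83 in the wild type samples, at 6.73, 6.26, 6.76, 6.64 and 6.65 in the premalignant samples, and between 6.79 and 8.50 (median 7.89) in the lymphomas. No array of one stage overlapped another. The level rose 2.25-fold at the first step (log2 difference 1.17 ± 0.22 SE, adjusted p = 0.0036, limma) and 2.25-fold again at the second (1.17 ± 0.23, adjusted p = 4.2e-04). Lymphomas were 5.06-fold above wild type cells, the widest rise among the factors. A further Eif1a probe set rose by 1.13 at the first step and gave 0.19 (adjusted p = 0.43), not called, at the second.

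Eif1ax, the X-linked gene of the same protein, was at 7.38, 7.17, 7.55 and 7.80 in wild type and 8.29, 8.56, 8.62, 8.41 and 7.97 in premalignant samples, and between 8.63 and 9.25 (median 9.01) in lymphomas. Again no arrays overlapped between stages. It rose by 0.89 ± 0.18 (adjusted p = 0.0044) and then by 0.62 ± 0.13 (adjusted p = 7.3e-04). Its other probe set rose by 0.50 at the first step and gave 0.21 (adjusted p = 0.36), not called, at the second. In this role Eif6, which keeps the large subunit from joining too early, rose by 0.43 ± 0.15 at the second step (adjusted p = 0.028), a call lost without premalignant replicate 2, 4 or 5 (adjusted p up to 0.093). Eif5b, the GTPase of subunit joining, was called over the whole course (0.69 ± 0.17, adjusted p = 0.0015). Its 2 probe sets gave 0.50 and 1.14 at the second step, where 1 of them was called higher. Eif5, which triggers GTP hydrolysis on eIF2, and Eif1b were not called in any comparison.

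Eif2s2 encodes the beta subunit of eIF2, which carries the initiator tRNA. It stood at 9.17 to 9.40 in wild type and 9.74 to 10.08 in premalignant samples, ranges that did not overlap, and at 9.82 to 10.51 in lymphomas. The first step came to 0.60 ± 0.12 (adjusted p = 0.0048) and the second to 0.25 ± 0.11 (adjusted p = 0.088), which was not called. Its 5 probe sets differed at the second step from 0.11 to 1.19. Eif2d, a factor that can deliver initiator tRNA on its own, was not called, though its other probe set fell at the second step (-0.47).

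Of the 4 tested genes of eIF2B, which recharges eIF2 with GTP, Eif2b5 (the catalytic epsilon subunit) rose at both steps. Its wild type values were 6.42, 6.74, 6.44 and 6.15, its premalignant values 7.50, 7.09, 7.28, 7.07 and 6.61, and its lymphoma values 7.22 to 8.06 (median 7.66). Premalignant replicate 5 was the only array of its group inside the wild type range. The rises were 0.67 ± 0.19 (adjusted p = 0.025) and 0.53 ± 0.16 (adjusted p = 0.010), and 2.31-fold over the whole course (adjusted p = 3.9e-06). The first call was lost without any one of wild type replicates 1, 3 and 4 and premalignant replicates 3 and 4 (adjusted p up to 0.074), and the second without premalignant replicate 5 (0.053). Eif2b1 was called only over the whole course (1.14 ± 0.24, adjusted p = 5.5e-04), and Eif2b2 and Eif2b4 not at all.

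Of the 4 kinases that phosphorylate eIF2 and so restrain initiation, 1 fell at the first step and 2 at the second, and none was called higher. Eif2ak3 encodes PERK, the kinase of endoplasmic reticulum stress. It was at 8.02, 8.23, 7.77 and 8.24 in wild type, at 7.42, 7.65, 7.69, 7.39 and 7.83 in premalignant samples, and between 5.71 and 7.10 (median 6.56) in lymphomas. All 13 lymphomas lay below all 9 other samples. The fall at the second step was 2.20-fold (-1.14 ± 0.21, adjusted p = 2.8e-04) and over the whole course 3.05-fold (adjusted p = 1.0e-05). The first step gave -0.47 ± 0.15 (adjusted p = 0.041), a call lost in 7 of 9 fits that left out 1 array (adjusted p up to 0.11; it held only without premalignant replicate 5 and without wild type replicate 3) and lost with spike centring (-0.21, adjusted p = 0.83).

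Eif2ak2, the PKR kinase that senses double-stranded RNA, was at 4.83 to 5.04 in wild type, 4.65 to 5.04 in premalignant and 4.11 to 4.91 in malignant samples, and 10 of 13 lymphomas were below all premalignant arrays. It fell by 0.41 on the log2 scale at the second step (adjusted p = 0.012). With spike centring it was not called there (-0.27, adjusted p = 0.38) or over the whole course (-0.10, adjusted p = 0.77). Eif2ak1, the heme-regulated kinase, gave -0.38 ± 0.16 there (adjusted p = 0.063) and was not called, but its dimmer probe set fell by 1.28. Eif2ak4, the GCN2 kinase of amino acid shortage, gave -0.26 ± 0.23 (adjusted p = 0.40).

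The eIF3 complex, the large platform that joins the small subunit to the mRNA, had 11 tested members. At the first step 3 rose, Eif3b, Eif3l and Eif3m. At the second Eif3a, Eif3b and Eif3d rose while Eif3f and Eif3m fell, and over the whole course 6 were higher and 1 lower. Eif3b, a core scaffold subunit, was at 7.05, 8.02, 6.66 and 7.06 in wild type, at 9.27, 7.93, 8.08, 8.17 and 7.71 in premalignant samples and at 8.82 to 9.78 (median 9.29) in lymphomas. Wild type replicate 2 and premalignant replicate 1 were the high arrays of their groups, and every lymphoma was above every wild type array. It rose by 1.03 ± 0.34 (adjusted p = 0.046) and by 1.05 ± 0.20 (adjusted p = 3.0e-04), 4.25-fold in all. The first of these calls was lost in 7 of 9 fits without 1 array (adjusted p up to 0.12; it held only without premalignant replicate 5 and without wild type replicate 2).

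Eif3f was at 11.51 to 11.83 in wild type and 11.58 to 11.70 in premalignant samples, and all 13 lymphomas were lower, at 10.70 to 11.44 (median 11.07). Its fall at the second step was 0.55 ± 0.13 (-0.55, adjusted p = 0.0017), and with spike centring it was no longer called (-0.41, adjusted p = 0.17). Eif3m rose by 0.48 ± 0.14 (adjusted p = 0.025) at the first step and fell by 0.37 ± 0.12 (-0.37, adjusted p = 0.020) at the second. It was at 7.73, 7.75, 8.07 and 8.05 in wild type, 8.24, 8.35, 8.57, 8.52 and 8.24 in premalignant and 7.63 to 8.32 (median 8.08) in malignant samples, so that the premalignant arrays stood above all wild type arrays and above 12 of 13 lymphomas. Second step minus first step was -0.86 ± 0.24 (adjusted p = 0.038). For this difference no factor, Eif3m included, was called in 5 of 10 fits that left out 1 array. These were the fits without premalignant replicate 2, 3 or 4 or wild type replicate 1 or 2. The lowest adjusted p over all factors there was 0.063 to 0.13. The single-step calls of Eif3m were lost without premalignant replicate 3 or 4 (adjusted p up to 0.068), that of the first also without wild type replicate 1 or 2. Its other probe set gave -0.024 and -0.18 at the 2 steps, both not called. Eif3d rose by 0.44 ± 0.17 at the second step (adjusted p = 0.048), a call lost without premalignant replicate 2, 3, 4 or 5 (adjusted p up to 0.13) and with spike centring (0.15). Eif3l rose at the first step (0.57 ± 0.14, adjusted p = 0.012), a call lost with spike centring (adjusted p = 0.17) and with the mean over its probe sets (0.35, adjusted p = 0.0505). Its dimmer probe set gave 0.13 there (adjusted p = 0.50), not called, and fell at the second step (-0.23, adjusted p = 0.030).

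Of the cap complex eIF4F and its cofactors, 9 genes were tested. Eif4e encodes the cap-binding protein, and the E-boxes printed above precede the later of its starts. It was at 7.65, 7.85, 8.60 and 8.40 in wild type, at 8.78, 8.82, 9.09, 9.14 and 9.00 in premalignant samples and at 8.77 to 9.88 (median 9.31) in lymphomas. All Myc-transgenic samples were above all wild type samples. It rose 1.80-fold at the first step (0.84 ± 0.20, adjusted p = 0.012), gave 0.36 ± 0.15 at the second (adjusted p = 0.061), and was 2.30-fold higher over the whole course (adjusted p = 2.8e-05). Its other probe set rose at both steps, by 1.16 and 1.08.

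Eif4a1 and Eif4a2 encode closely related RNA helicases of the cap complex, and they moved apart. Eif4a1 was at 9.84, 10.10, 10.12 and 10.31 in wild type and at 11.02, 10.56, 11.14, 11.13 and 10.74 in premalignant samples, without overlap. It rose 1.77-fold (0.83 ± 0.16, adjusted p = 0.0043) and then gave -0.03 ± 0.17 (adjusted p = 0.90), with lymphomas at 10.45 to 11.67. Another of its 3 probe sets rose at both steps (1.00 and 0.66), and the remaining one gave 1.24 and -0.64, of which the first was called. Eif4a2 was at 10.72, 10.77, 11.04 and 10.96 in wild type, 10.40, 10.59, 10.48, 10.45 and 10.71 in premalignant and 9.48 to 10.85 (median 9.91) in malignant samples. It gave -0.34 ± 0.13 at the first step (adjusted p = 0.068), where its groups did not overlap, and fell by 0.55 on the log2 scale at the second (adjusted p = 0.015). With spike centring it was not called at the second step (-0.41, adjusted p = 0.19) or over the whole course (-0.50, adjusted p = 0.12). Within each array, Eif4a1 minus Eif4a2 averaged -0.78 ± 0.14 (SD, n = 4) in wild type, 0.39 ± 0.36 (n = 5) in premalignant and 0.91 ± 0.57 (n = 13) in malignant samples. Only the shift between groups can be read from this, since the 2 probe sets differ in affinity.

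Eif4h, a cofactor of the helicase, was at 9.98 to 10.15 in wild type, 10.11 to 10.65 in premalignant and 10.83 to 11.64 (median 11.05) in malignant samples, and every lymphoma exceeded every other sample. It rose by 0.66 ± 0.15 at the second step (adjusted p = 0.0016) after 0.40 ± 0.14 at the first (adjusted p = 0.066). Eif4g3, a scaffold of the complex, rose by 0.49 ± 0.18 at the second step (adjusted p = 0.031), a call lost without premalignant replicate 3, 4 or 5 (adjusted p up to 0.11). Eif4e2, a cap-binding relative of Eif4e, was called over the whole course (0.94 ± 0.16, adjusted p = 6.4e-05). Eif4b, the other helicase cofactor, was not called in any comparison by its brightest probe set. Of its 3 probe sets, 1 was called higher at the first step, 1 lower at the second and 1 higher over the whole course. They ranged from -0.79 to 0.15 at the second step.

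**Figure D2:**
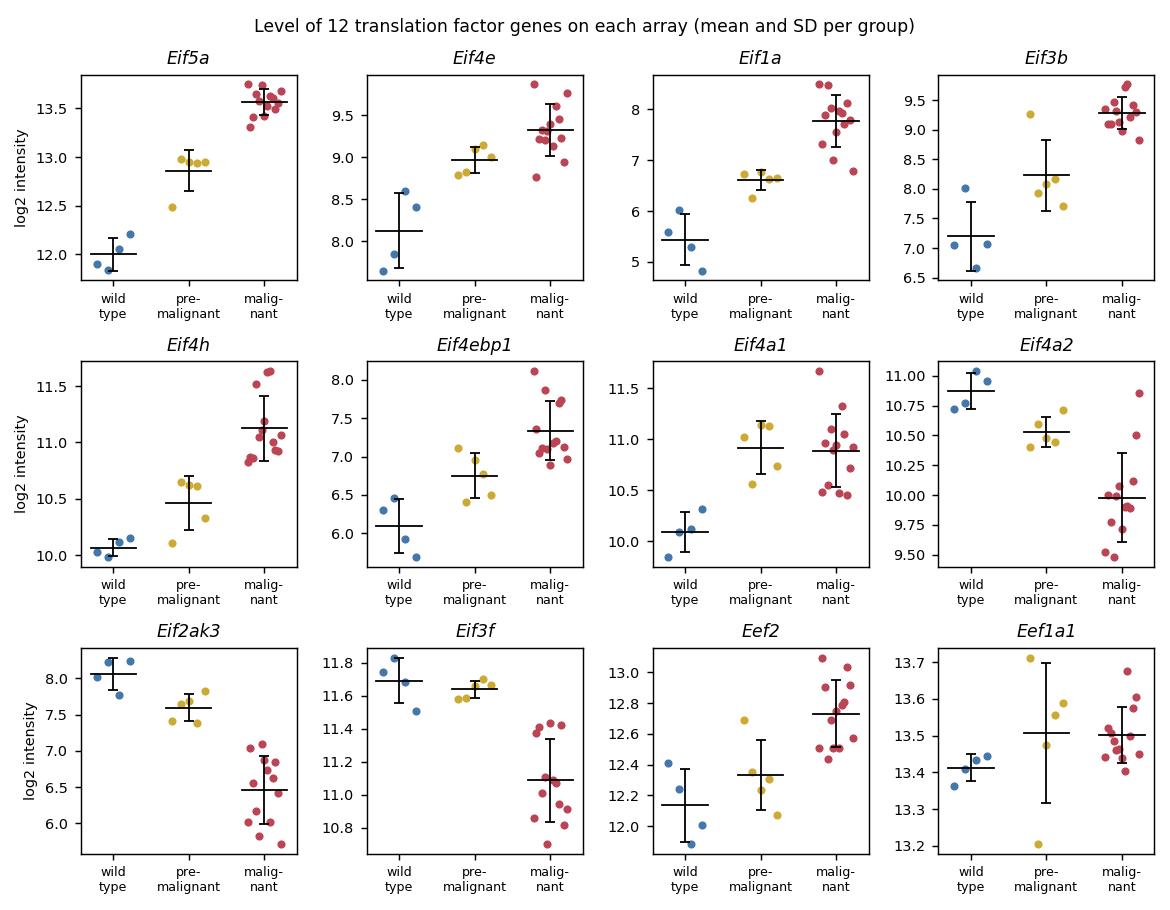
Log2 intensity of 12 factor genes on each array of the 4 wild type (blue), 5 premalignant (yellow) and 13 malignant (red) samples, 1 panel per gene with its own vertical axis, with the group mean (line) and SD (bar). Eif1a and Eif5a separate all stages, Eif2ak3 and Eif3f are lowest in lymphomas, and Eef1a1 lies between 13.20 and 13.71 in all samples.

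Of 3 genes of proteins that bind eIF4E and restrain it, 1 rose at the first step and 2 at the second. Eif4ebp1 was at 6.31, 6.46, 5.93 and 5.68 in wild type, 7.11, 6.40, 6.95, 6.78 and 6.50 in premalignant and 6.88 to 8.12 (median 7.18) in malignant samples. Premalignant replicate 2 alone lay inside the wild type range. The rises were 0.65 ± 0.20 (adjusted p = 0.037) and 0.59 ± 0.19 (adjusted p = 0.017), and 2.37-fold in all. The first call was lost without premalignant replicate 1, 3 or 4 and without wild type replicate 3 or 4 (adjusted p up to 0.10), and the second without premalignant replicate 2 or 5 (up to 0.061). Eif4ebp2 rose by 0.48 ± 0.17 at the second step (adjusted p = 0.029, lost without premalignant replicate 3, 4 or 5, up to 0.077, and 0.65 with the mean over its probe sets), and Eif4enif1, which carries eIF4E into the nucleus, was not called.

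Of 7 genes grouped as elongation factors, 2 rose at the first step (Eef1e1 and Eif5a), 2 at the second (Eef2 and Eif5a) and 4 over the whole course. Eef1e1, a scaffold protein described below, is counted among them by its symbol. Eif5a encodes the hypusine-bearing protein that keeps ribosomes moving through difficult stretches such as runs of proline. Its values were 11.90, 11.84, 12.06 and 12.21 in wild type, 12.49, 12.98, 12.95, 12.94 and 12.95 in premalignant and 13.30 to 13.75 (median 13.58) in malignant samples. The stages did not overlap. It rose 1.82-fold (0.86 ± 0.15, adjusted p = 0.0020) and 1.63-fold (0.70 ± 0.10, adjusted p = 2.5e-05), 2.96-fold over the whole course (adjusted p = 5.0e-10). Its SD among lymphomas was 0.13, and its other probe set rose at both steps (0.97 and 0.42).

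Eef1e1, a small scaffold protein of the tRNA synthetase complex, was at 7.02, 7.29, 6.94 and 7.02 in wild type and 8.03, 8.09, 8.34, 8.31 and 8.00 in premalignant samples, without overlap. It rose 2.12-fold (1.08 ± 0.13, adjusted p = 3.4e-04). At the second step its mean difference was -0.00 (95% interval -0.57 to 0.56), while the lymphomas spread from 7.06 to 9.14, with 6 of 13 above and 5 below the whole premalignant range. Eef2, the translocase, was at 11.88 to 12.41 in wild type, 12.07 to 12.69 in premalignant and 12.44 to 13.10 (median 12.75) in malignant samples, and all lymphomas exceeded all wild type samples. It rose by 0.40 ± 0.13 at the second step (adjusted p = 0.015), a call lost without premalignant replicate 5 (0.059).

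Eef1a1, which delivers aminoacyl-tRNA and gives one of the most abundant mRNAs of the cell, was not called in any comparison. Its differences were 0.09 (95% interval -0.19 to 0.38) at the first step and -0.00 (-0.19 to 0.18) at the second. Eef1a2, Eef1d and, at the single steps, the exchange factor Eef1b2 were not called either. Eef2k, the kinase that switches off Eef2, was at 3.30 to 3.70 in wild type, 3.66 to 4.10 in premalignant and 3.84 to 5.17 in malignant samples. Its wild type values and mean were under log2 4, so that its rise over the whole course was at least 1.30-fold (adjusted p = 0.0033). Eef2k passed the filter only through the Myc-transgenic arrays, where it was higher, so this call is no independent support for a rise. With the beta-actin covariate the call was lost (0.46, adjusted p = 0.43). The methyltransferase gene Eef1aknmt was also higher over the whole course (0.88 ± 0.18, adjusted p = 3.0e-04). Its wild type values lay near the filter level, at 3.69, 4.90, 3.98 and 3.74. Wild type replicate 2 fell inside the lymphoma range of 4.71 to 5.44.

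Of the 91 factor probe sets, fitted beside all 10789 that passed the filter, 20 rose and 1 fell at the first step, 25 rose and 12 fell at the second, and 49 were higher and 9 lower over the whole course. Among all probe sets 24.4% (12.7% higher, 11.7% lower), 43.2% (23.2% and 19.9%) and 60.8% (30.5% and 30.3%) were called. Of the 49 genes, 25 had more than 1 tested probe set. No gene had probe sets called in opposite directions at the first step. At the second step Eif3a, Eif3c and Eif4ebp2 did, and over the whole course also Eif3e. The brightest Eif3a probe set, at 9.96 to 10.56 in premalignant and 10.55 to 11.25 in malignant samples, rose by 0.71 (adjusted p = 1.1e-04), another rose by 0.50, another gave -0.24 and was not called, and the last fell by 1.87 on the log2 scale. With their mean the change of Eif3a turned to -0.23 (adjusted p = 0.23). For Eif3c, 2 probe sets rose (0.29 and 0.48), 1 fell (-1.31) and the brightest gave 0.23 without a call. For Eif4ebp2 the values were 0.48 (higher), 0.66 (not called) and -0.79 (lower). The directions for these genes hold for the probe set named and not for the gene as a whole, and the lymphomas are the arrays with the wide beta-actin 3′ to 5′ difference, whose part in this was not tested.

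**Figure D3:**
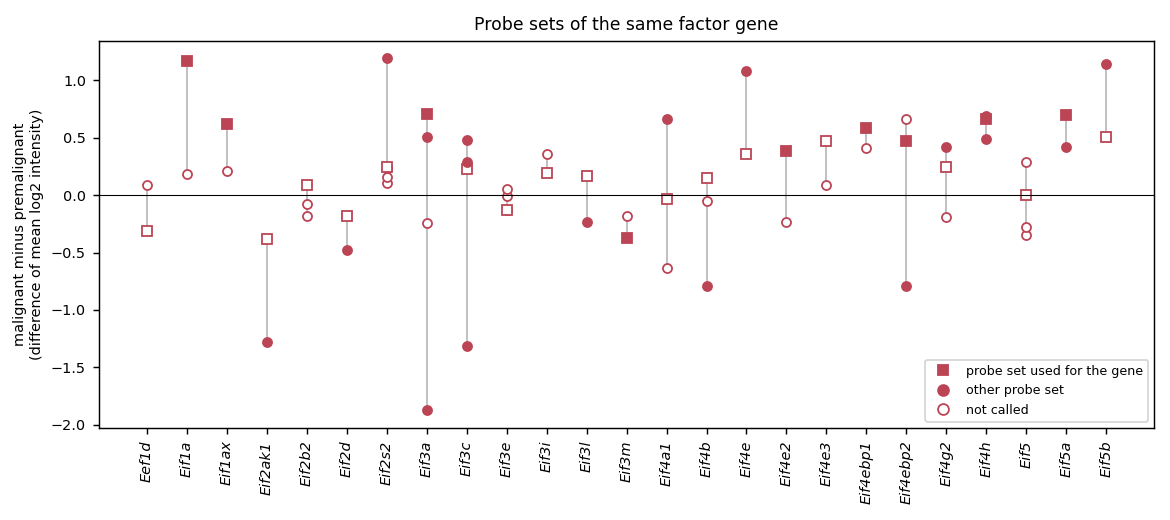
Malignant minus premalignant difference of mean log2 intensity for every tested probe set of the 25 factor genes with several, fitted over all probe sets. Squares are the probe sets used for the gene, circles the others, and filled symbols were called; Eif3a spans -1.87 to 0.71 and Eif3c -1.31 to 0.48.

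As a description of the spread within the last stage, the median SD over 13 lymphomas was 0.28 for the factors and 0.33 for all genes, and 32.7% of factors lay above the median of all genes. Eif4e3, a cap-binding relative (SD 0.89, from 3.94 to 6.96), Eef1akmt1, an eEF1A methyltransferase (0.76, from 3.97 to 6.54), and Eef1e1 (0.63) varied most. Eef1a1 (0.076) and Eif3k (0.12) varied least. On Myc level among the lymphomas, fitted as a slope in limma, 0 of 49 factors and 0% of all genes passed. At an unadjusted p under 0.05 there were 6 factors and 13.5% of all genes. Eif1a had the steepest positive slope, 0.73 log2 units per log2 unit of Myc (95% interval 0.43 to 1.02, adjusted p = 0.084), 0.89 without the 2 lymphomas farthest from the median Myc (adjusted p = 0.26) and 0.37 as the mean of its probe sets (adjusted p = 0.32). Eif4a2 had -0.35 (adjusted p = 0.34). On the beta-actin difference 0 factors passed, and 3 had an unadjusted p under 0.05, against 6.79% of all genes.

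**Figure D4:**
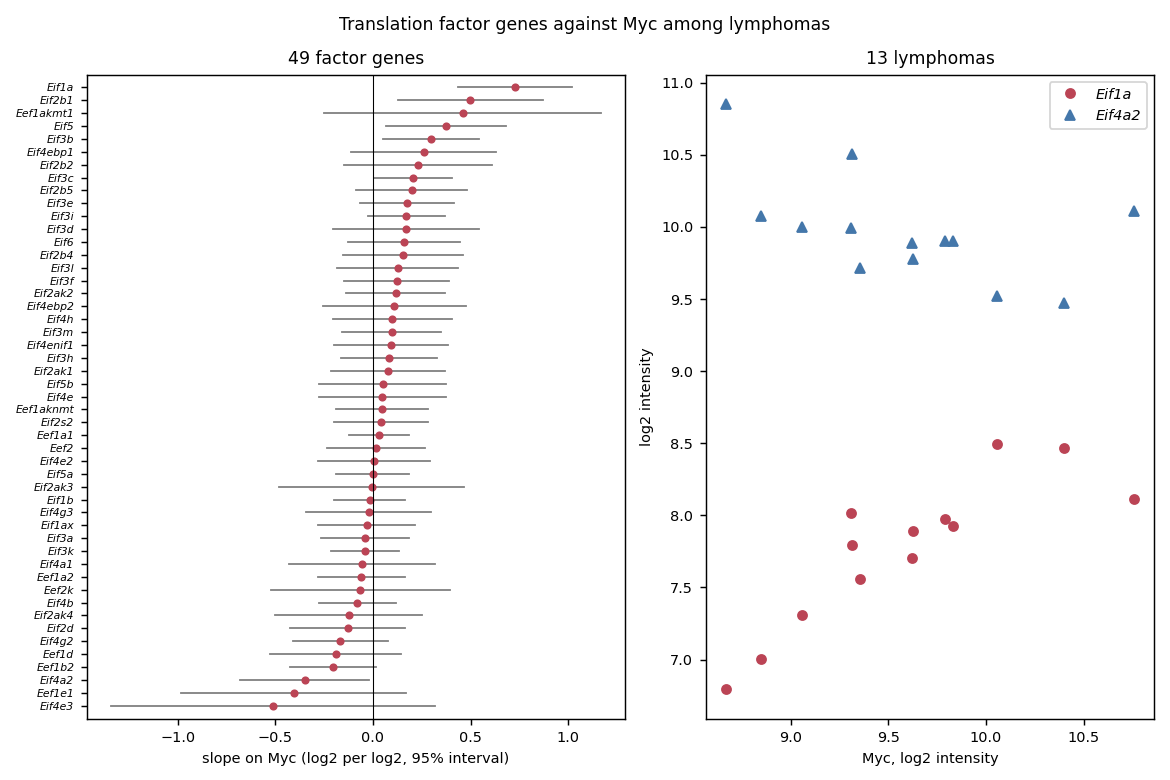
Left, slope of each of the 49 factor genes on Myc over the 13 lymphomas (log2 per log2, with 95% interval); right, log2 intensity of Eif1a (red circles) and Eif4a2 (blue triangles) against Myc, 1 point per lymphoma. Eif1a has the steepest positive slope (0.73), none passes after adjustment, and the points share their array.

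Other genes of the pathway, taken from lists, changed as follows. Of 9 cofactors at the poly(A) tail and the cap, 3 rose and 1 fell at the first step and 4 rose and 1 fell at the second. Larp1, which binds mRNAs of ribosomal proteins, rose by 0.88 and 1.12, 4.00-fold in all (adjusted p = 8.9e-10). Pdcd4, an inhibitor of the eIF4A helicase, gave -0.12 at the first step without a call and fell 3.22-fold at the second (-1.69, adjusted p = 0.0011). Both termination factors rose at the first step, Gspt1 2.22-fold (adjusted p = 0.0039) and Etf1 1.65-fold (adjusted p = 0.0031), and Etf1 rose again at the second (0.86). Of 7 genes of reinitiation and ribosome recycling 1 rose at the first step, Abce1 (0.94, adjusted p = 0.0021), which splits terminated ribosomes, and at the second 2 rose, Hbs1l and Abcf1, and 1 fell.

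Of 12 tested genes of mTOR and Mnk signalling, which act on eIF4E and its inhibitors, 1 rose and 2 fell at the first step, and the same numbers at the second. Tsc1, a brake on mTOR, fell 2.34-fold at the first (-1.23, adjusted p = 0.017), and Mtor rose 2.67-fold at the second (adjusted p = 0.0014). Over the whole course 3 of the 12 were higher and 6 lower, with a median difference of -0.38 log2 units. Of 6 genes that make hypusine and diphthamide, the modified residues of Eif5a and Eef2 protein, 1 rose at the first step and 3 at the second, among them Dohh, the last enzyme of hypusine synthesis (0.79, adjusted p = 0.0018); Dhps, the first, was not called (-0.16 and -0.14). Of 5 mitochondrial factors, 1 rose at the first step and 1 rose and 1 fell at the second, and Gfm1, the mitochondrial translocase, rose at both (0.61 and 0.98). Downstream of eIF2 phosphorylation 7 genes were tested, of which 1 rose and 1 fell at the first step and 2 rose and 2 fell at the second. Asns, asparagine synthetase, rose at least 2.05-fold and then 3.49-fold, Ddit3 fell at the first step (-0.86, adjusted p = 0.037), Ppp1r15a, which recruits the eIF2 phosphatase, fell at least 5.75-fold at the second, and Atf4 was not called in any comparison. Of 17 cell division genes all rose at the first step and 14 at the second, with medians of 2.32 and 0.70, and their part in the factors' rise was not tested.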

How the data were processed

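The deposited values are intensities that the authors made with GCRMA, per the submitters' processing notes (background correction, normalisation and summary of each probe set). GCRMA's version was not given in the sources used here. Log2 was taken here. Probe sets were named from the platform table, and promoter windows came from RefSeq (GRCm38.p6). Of 22690 probe sets, 10789 exceeded log2 4 on at least 4 arrays, and 6437 genes were tested. The 3 probe sets that Eif3j1 and Eif3j2 share were left out. The 2 groups of a comparison were fitted alone, two-sided, in limma 3.58.1 under R 4.3.3 with moderated variances. Group means under log2 4 were set to 4 for folds, given then as "at least". Arrays have no count depth, and their number limits precision. On simulated data (6437 genes, 200 of them changed), 71% of 2-fold and 97% of 4-fold changes were recovered at the first step, with 10 false calls. The second step gave 78% and 98% with 19 false calls, and the whole course 80% and 98% with 40. For the difference of the steps 27% of 2-fold and 83% of 4-fold changes were recovered, with 17 false calls.

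The members, lists, tests and rule for named genes were chosen with earlier results of these data known. The rule took Myc, the 8 largest called changes with no more than 1 array of overlap, for each role as many as 3 members called in the prevailing direction and 1 called against it, 16 factors picked for their known roles, the 5 largest SDs among lymphomas, up to 5 genes with opposed probe sets and up to 2 called members of each other list. Factors named as not called, and Dhps, Atf4 and Eif3k, fall partly outside it and were chosen after their values were seen. Alternatives changed the filter, scaling, probe set, weights, prior, samples, replicate block and beta-actin covariate.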

Additional observations from a re-analysis of the deposited data

Results flagged for a closer look

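In 6 of 98 groups of 4 or 5 arrays tested, 1 array stood apart from the others of its group by Dixon's criterion at 95%; chance gives about 1 in 20. Premalignant replicate 1 was low for Eif5a (12.49) and Eef1b2 (11.03) and high for Eif2b1 (7.06). Premalignant replicate 2 was low for Eif1a (6.26). Wild type replicate 2 was low for Eef1a2 (4.85) and high for Eif2b4 (6.89). The calls of Eif5a and Eif1a at both steps held in each fit that left out 1 array. Without premalignant replicate 1, Eef1b2 passed at the first step (0.62, adjusted p = 0.016) and Eif2b1 at the second (adjusted p = 0.0091).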

How the results depend on the processing

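Over 2579 refits of single factors, 2367 kept their side of the threshold, 147 lost the call, 64 gained it and 1 reversed (Eif3a at the second step with the mean over probe sets, -0.23). Direction was compared only where the original fit or the refit was called, so factors called in neither may have changed sign. Leaving out 1 array gave 8 to 15 factors called at the first step, 12 to 21 at the second, 28 to 30 over the whole course and 0 to 1 for the difference of the steps; 8 of 13, 10 of 18 and 27 of 30 calls held throughout, and those of Eef1b2, Eif3i and Eif4g2 over the whole course did not. Without premalignant replicates 3 or 4, 8 were called at the first step, and without premalignant replicate 5 the second step had 6 higher and 6 lower. Spike centring gave 560 genes and 7 factors at the first step and 1771 and 9 at the second. No filter gave 4929 genes at the second step and 7921 over the whole course, with 33.3% and 26.8% of them higher; array median centring gave 69.2% and 60.4%. The beta-actin covariate gave 321 genes and 0 factors at the second step (lowest adjusted p among factors 0.12, Eif5a) and 1879 and 15 over the whole course. Same-numbered wild type and premalignant samples correlated from -0.064 to 0.21 in their deviations; not every pair exceeded 0.1 and the labels tie no number to a litter, so the numbers were not taken as pairs. The replicate block gave 10, 11 and 21 factors, and 1677 genes at the second step, over fewer lymphomas. The difference of the steps called 0 factors in several refits, given here with the lowest adjusted p over all factors. These were median centring (0.071), spike centring (0.60), the mean over probe sets (0.057), the replicate block (0.13) and the beta-actin covariate (0.19). The fit without wild type replicate 2 and premalignant replicate 1 together also called 0 (0.068). For these changes the cause was not tested. The alternative without malignant replicate 1 was chosen after seeing the data. Protein identity between paralogs was not run. The E-box share was 25% before the start alone.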

Other observations

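Single lymphomas differed in how often they held the extreme value of the 49 factors. Malignant replicate 1 was the highest lymphoma for 12 factors and replicate 9 for 11, while replicates 10 and 12 were highest for 0. Replicate 13, the lymphoma with the lowest Myc (8.67), averaged 0.16 log2 units below the others over the factors (-0.16). Replicate 5 (Myc 9.31) averaged 0.15 above, and replicate 11, with the highest Myc (10.76), 0.0056 above. Among premalignant samples, replicate 1 was the highest for 24 factors and replicate 5 the lowest for 19. Among wild type samples replicate 2 was the highest for 22.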
